A study of Mus musculus with 6 samples.

Results

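The genes described here encode the machinery that copies DNA and the enzymes that supply its nucleotides. They are 42 genes chosen by symbol, and all 42 were found among the 55487 genes of the deposited table and passed the filter on low counts, which kept 13755 genes. The libraries came from primary epithelial cells of mouse kidney tubules and were measured by bulk RNA sequencing. In the 3 knockout libraries, Cre recombinase delivered by adenovirus is labelled as having deleted Elf3, an epithelial transcription factor gene of the ETS family. The 3 control libraries came from cells labelled wild type that had received a control adenovirus. Cre is labelled for the knockout libraries only, so its own effect cannot be told apart from that of Elf3 loss. Whether the control cells carried floxed Elf3 is not stated. Both groups are labelled as exposed to the cytokines TNFα and IFNγ, and as batch 1, so that a cytokine response and a viral infection are shared by knockout and control. Strain, age, sex and number of mice, the Cre promoter and the floxed part of Elf3 are not stated in the sources used here. Nothing states that replicates came from separate cultures or animals, so p-values measure the spread between these libraries, which may be technical.

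Replication is prepared in G1, when the origin recognition complex with CDC6 and CDT1 loads the ring-shaped MCM2-7 helicase onto DNA. This step is called licensing, and geminin blocks it by binding CDT1. In S phase CDC45 and the GINS complex turn the loaded ring into an active helicase, polymerase alpha with primase lays down primers, and polymerases epsilon and delta extend the new strands on the PCNA clamp, which replication factor C loads. Tubular cells of a healthy kidney divide rarely and enter the cell cycle after injury or in culture, and many replication genes are transcribed under E2F factors at the entry to S phase.

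Total estimated counts per library lay between 8961780 and 10774200, and 3 counts, the limit that a count of 0 allows, corresponded to between 0.282 and 0.337 CPM, the counts scaled to a common library total with TMM size factors. Each member had between 23 and 1121 estimated counts in each library. Elf3 itself stood at 4.26, 3.01 and 2.03 CPM in knockout libraries, against 18.9, 24.3 and 22.8 CPM in controls, so that each library labelled knockout lay below each control. The remaining level was 13.9% of the control level (log2 fold change -2.84, edgeR adjusted p = 1.15e-16).

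Replication genes were altered modestly and mostly downwards in the knockout. Of the 42 members, 13 fell, 3 rose and 26 did not pass an adjusted p of 0.05 in the quasi-likelihood test of edgeR, adjusted over all genes by the Benjamini-Hochberg method, which stands behind each adjusted p given here as edgeR. The genes that fell were Mcm6, Mcm4 and Mcm3 of the helicase, Cdc6 and Gmnn of licensing, Pola1, Prim1, Pold1 and Pold2 of the polymerases, Rpa3, Lig1, Tk1 and Uhrf1. Those that rose were Cdt1, Pole and Tyms. No member changed by 2-fold, and log2 fold changes ran between -0.72 for Prim1 and 0.57 for Cdt1.

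Over all genes tested, 37.0% were called, 18.5% higher and 18.5% lower. The 16 called members are 38.1% of the list, close to that background, so the number called is not a result about these genes. By direction, 31.0% of members were called lower and 7.14% higher. Of the 42 log2 fold changes, 34 lay below 0 (81.0%), against 51.2% over all genes tested, and the median was -0.16, against -0.01 over all genes tested. In bulk RNA, fewer cells in S phase and less of these transcripts per cell cannot be told apart.

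Taken as a share of each library, the members together held 0.108%, 0.107% and 0.107% of estimated counts in the knockout, against 0.122%, 0.122% and 0.123% in the controls. Each knockout library lay below each control. Knockout and control CPM values did not overlap for 20 members that were lower in the knockout and for 4 that were higher, where 23.6% and 23.0% of all tested genes did the same in these directions. These counts depend on the test: with DESeq2, 8 members were called lower (14.8% of all tested genes) and with limma on log2(TPM + 1) also 8 (8.45%). With limma on log2(TPM + 0.1) 7 were called lower (8.53%), and on log2(TPM + 1) without a filter 4 (4.42%). At an adjusted p under 0.01, edgeR called 7 lower (13.1%).

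**Figure D1:**
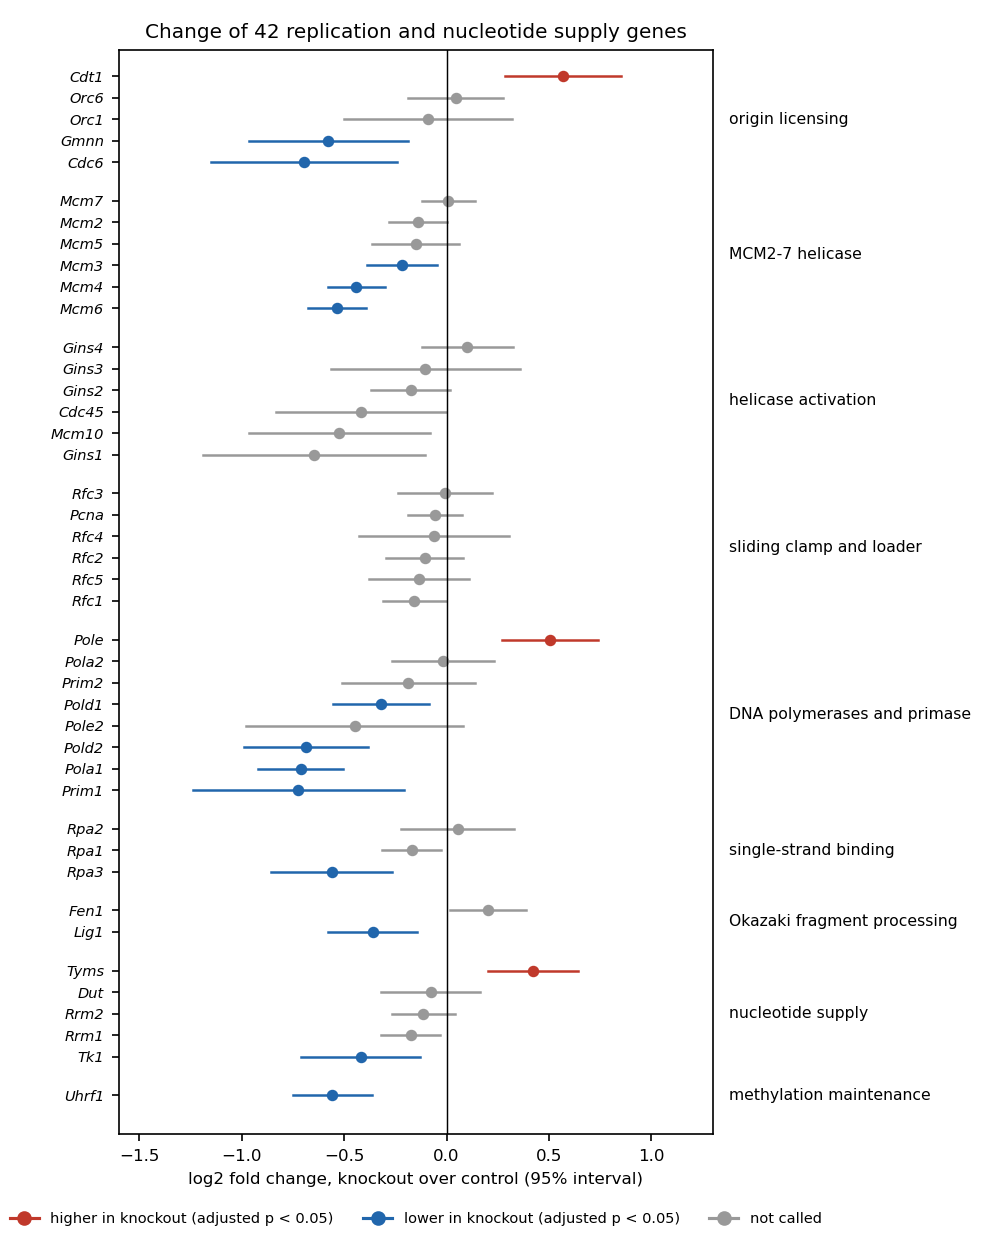
Log2 fold change of each of the 42 members, knockout over control, with its 95% interval from the edgeR fit, in groups by role. Red marks the 3 genes higher in the knockout, blue the 13 lower and grey the 26 that did not pass an adjusted p of 0.05. Most points lie left of 0, and none reaches a 2-fold change.

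Licensing factors went both ways. Cdt1, which delivers the MCM ring to origins, stood at 14.4, 14.9 and 16.1 CPM in knockout libraries, against 11.2, 10.4 and 8.95 CPM in controls. All 3 knockout values lay above all 3 control values. It rose 1.48-fold (log2 fold change 0.57, SE 0.14, edgeR adjusted p = 0.00113). Gmnn encodes geminin, the inhibitor of CDT1, and its CPM values were 4.6, 5.17 and 5.89 in the knockout and 8.76, 7.87 and 6.74 in the controls. The groups did not overlap, and Gmnn fell by 0.58 on the log2 scale (SE 0.19, edgeR adjusted p = 0.0159). Its call was lost without knockout replicate 1 (edgeR adjusted p = 0.0627) or control replicate 1 (0.0944), and with DESeq2 (adjusted p = 0.0504).

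The ratio of Cdt1 to Gmnn counts was 3.12, 2.89 and 2.74 in knockout libraries and 1.28, 1.32 and 1.33 in controls. It was 2.23-fold higher in the knockout and did not overlap between groups. This pair was picked after its values were seen, so no test is given. CDC6, the ATPase that joins the origin complex before the ring is loaded, is encoded by Cdc6, with 3.48, 3.29 and 4.73 CPM in the knockout and 5.37, 5.93 and 7.51 CPM in the controls. Each knockout value lay below each control value. Cdc6 fell 1.62-fold (log2 fold change -0.70, SE 0.22, edgeR adjusted p = 0.0123). Without knockout replicate 2 or control replicate 3 the edgeR adjusted p was 0.0619 or 0.0902, and on log2(TPM + 1) the limma adjusted p was 0.295. The origin recognition subunits in the list did not pass. Orc6 had 21.9 ± 1.59 CPM in the knockout and 21.2 ± 3.25 CPM in the controls (SD, n = 3 each), and Orc1 had 5.83 ± 1.36 and 6.15 ± 0.486 CPM in the same order.

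Within the MCM2-7 ring, the 6 subunit genes split into 3 that fell and 3 that did not pass. Mcm6 had 48.7, 53.2 and 57.0 CPM in knockout libraries, against 76.6, 77.2 and 76.7 CPM in controls. The control libraries were nearly equal and all above the knockout libraries. Mcm6 had the smallest p of all members and fell 1.45-fold (log2 fold change -0.53, SE 0.07, edgeR adjusted p = 4.46e-08). Mcm4 values were 56.3, 52.0 and 58.9 CPM in the knockout and 76.1, 72.4 and 78.3 CPM in the controls. Again no knockout library reached a control library, and the log2 fold change was -0.44 (SE 0.07, edgeR adjusted p = 1.91e-06). Mcm3 lay at 34.2, 40.0 and 40.0 CPM in the knockout and 41.8, 45.8 and 45.7 CPM in the controls. The gap between groups was narrow, and the log2 fold change was -0.22 (SE 0.08, edgeR adjusted p = 0.0392).

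Among the 16 calls, that of Mcm3 lay nearest to the threshold, and it was lost without knockout replicate 1 (edgeR adjusted p = 0.203), control replicate 2 (0.137) or control replicate 3 (0.115), and with DESeq2 (adjusted p = 0.0971). Mcm7, the most abundant MCM gene, had 108, 105 and 101 CPM in the knockout, against 97.2, 100.6 and 116 CPM in the controls. Its groups overlapped, with a log2 fold change of 0.01 and a 95% interval of -0.12 to 0.14, where the interval of Mcm6 was -0.67 to -0.39. Mcm5, the least abundant per length, averaged 25.9 ± 3.79 CPM in the knockout and 28.7 ± 1.98 CPM in the controls (SD, n = 3 each). Mcm2 had all knockout values under all control values without passing (log2 fold change -0.14, 95% interval -0.28 to 0.00, edgeR adjusted p = 0.114).

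**Figure D2:**
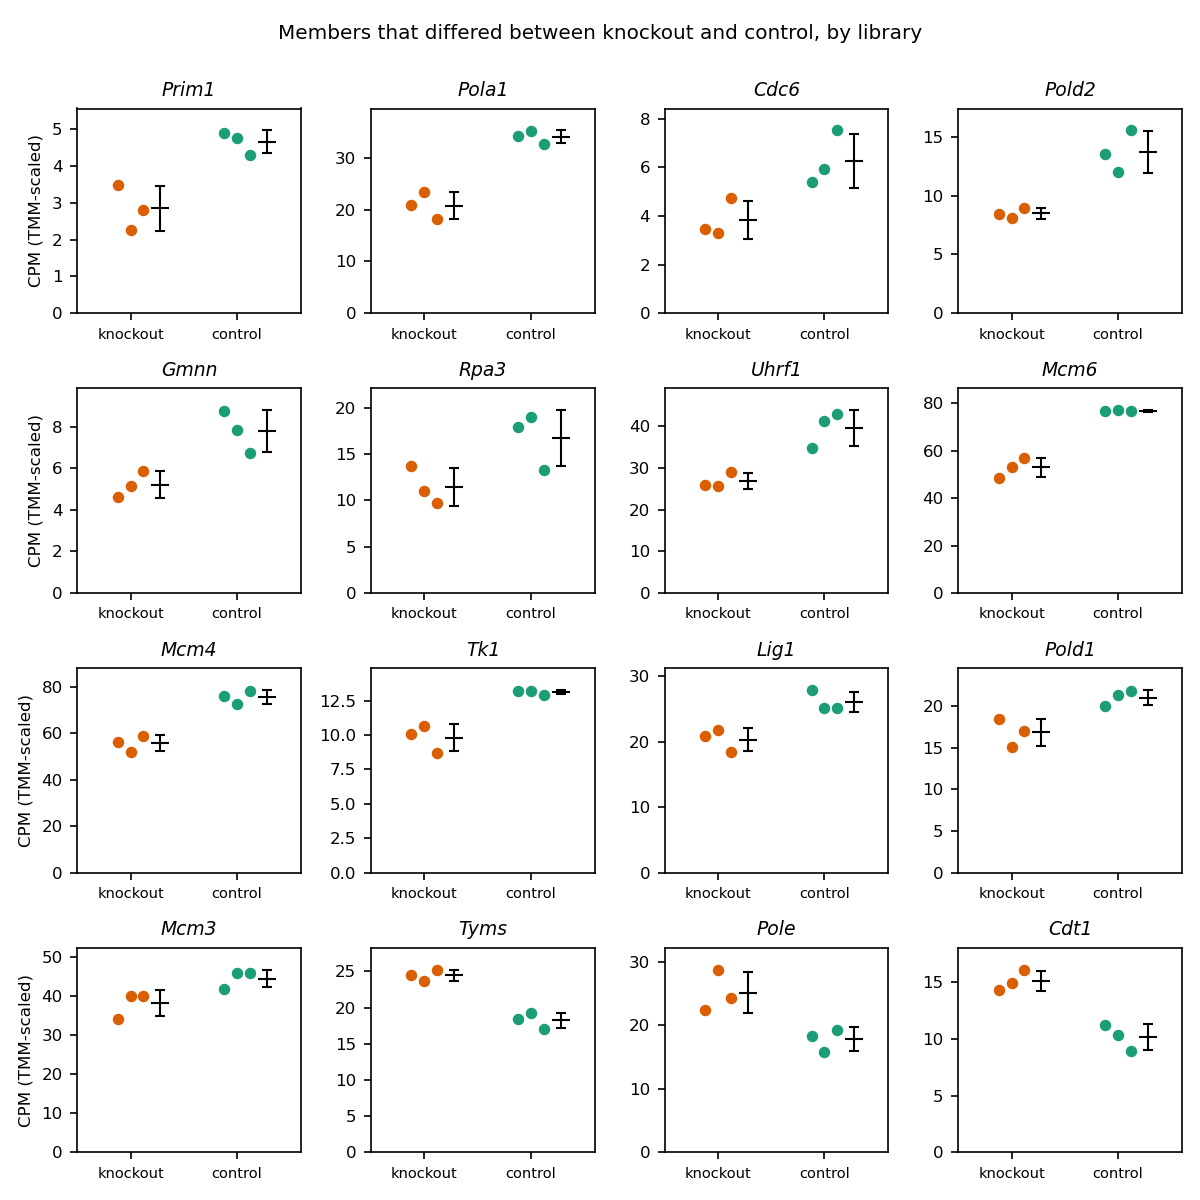
CPM of the 16 called members in each library, with 3 knockout libraries (orange) left of 3 control libraries (green) and the mean with its SD in black. The axes start at 0 and differ between panels. Panels run from Prim1, with the lowest log2 fold change of -0.72, to Cdt1, with the highest of 0.57, and only Rpa3 shows overlapping groups.

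Promoter sequence of 300 bases (250 before and 50 after an annotated start) was found for 34 of the 42 members in RefSeq, build GRCm38.p6. No entry was found for Gmnn, Mcm4, Gins1, Gins2, Gins4, Rfc2, Prim2 and Pole. The windows below belong to the called members with an entry and the smallest p-values, Mcm6 and Pola1 for those lower and Cdt1 and Tyms for those higher, and they show the E2F motifs found in genes of either direction. They lie at chr1:128359656-128359955 on the minus strand (Mcm6), chrX:93632106-93632405 on the minus strand (Pola1), chr8:122567765-122568064 on the plus strand (Cdt1) and chr5:30073576-30073875 on the minus strand (Tyms). Capitals mark matches to an E2F motif, written as TTTGGCGC, TTTCCCGC, TTTCGCGC or TTTGCCGC and searched on both strands.
Mcm6: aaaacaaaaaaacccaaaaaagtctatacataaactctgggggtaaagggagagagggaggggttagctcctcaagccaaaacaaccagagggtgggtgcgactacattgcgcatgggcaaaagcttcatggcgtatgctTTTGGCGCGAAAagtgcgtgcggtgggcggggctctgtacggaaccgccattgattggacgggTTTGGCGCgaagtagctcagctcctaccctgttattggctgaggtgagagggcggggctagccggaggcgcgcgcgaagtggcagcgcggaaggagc
Pola1: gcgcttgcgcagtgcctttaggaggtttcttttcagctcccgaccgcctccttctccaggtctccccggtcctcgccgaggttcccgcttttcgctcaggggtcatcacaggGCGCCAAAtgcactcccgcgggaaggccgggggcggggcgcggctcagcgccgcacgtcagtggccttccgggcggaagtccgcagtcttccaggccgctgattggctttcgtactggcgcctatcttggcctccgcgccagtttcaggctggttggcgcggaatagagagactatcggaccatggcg
Cdt1: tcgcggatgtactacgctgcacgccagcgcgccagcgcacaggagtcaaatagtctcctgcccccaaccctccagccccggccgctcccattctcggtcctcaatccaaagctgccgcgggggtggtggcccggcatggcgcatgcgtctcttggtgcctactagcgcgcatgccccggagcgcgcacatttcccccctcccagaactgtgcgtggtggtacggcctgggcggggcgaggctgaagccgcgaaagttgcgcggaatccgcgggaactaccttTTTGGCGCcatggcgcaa
Tyms: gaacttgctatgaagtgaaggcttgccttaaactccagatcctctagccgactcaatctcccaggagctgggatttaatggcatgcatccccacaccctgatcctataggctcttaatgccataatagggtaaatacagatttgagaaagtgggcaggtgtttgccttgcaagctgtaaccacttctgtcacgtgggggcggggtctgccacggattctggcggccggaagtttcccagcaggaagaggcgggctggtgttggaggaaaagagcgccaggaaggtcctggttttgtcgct

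The Mcm6 window held 3 matches, 2 of which overlap each other and lie 110 and 106 bases before the start, while the third begins 47 bases before it. Pola1 held 1 match, 138 bases before the start, and Cdt1 held 1, beginning 32 bases after it. Tyms held none of these letters, and it held 1 match to an ETS motif, CCGGAAGT, 26 bases before its start. An E2F motif was found for 14 of the 34 members with an entry (41.2%), against 4.66% of 10356 tested genes with an entry and 2.6% of all 27025 genes with one. By call, 7 of 11 members that fell, 1 of 2 that rose and 6 of 21 that did not pass had a match. The ETS motif was found for 7 of 34 members (20.6%), against 9.09% of tested genes, and for 1 of the 11 that fell, Rpa3. A gene counts where any of its windows has a match, a match is a description of letters, and no factor's binding was measured.

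Factors that activate the loaded helicase had 0 of 6 genes called by edgeR, and 3 of them, Mcm10, Gins1 and Cdc45, had an unadjusted p under 0.05. At least 37.0% of all tested genes had such a p, the share that passed after adjustment, so these 3 are not a result about the group. MCM10, which helps to split the double ring, had 5.16, 4.61 and 3.19 CPM of Mcm10 in the knockout and 6.78, 5.34 and 6.41 CPM in the controls. Gins1, a GINS subunit gene, had 4.15, 2.26 and 2.22 CPM in the knockout and 4.24, 4.76 and 4.31 CPM in the controls. Neither gene overlapped between groups, with edgeR adjusted p = 0.0576 for Mcm10 and 0.0545 for Gins1. Without knockout replicate 1 both passed (edgeR adjusted p = 0.0301 for Mcm10 and 0.00849 for Gins1). Mcm10 also passed without control replicate 2 (0.04996). On TPM the lower level of Mcm10 was not seen: it averaged 3.47 ± 1.09 TPM in the knockout and 3.38 ± 0.315 TPM in the controls (SD, n = 3 each), with a log2(TPM + 1) difference of 0.0025 (limma adjusted p = 0.996). Cdc45, the helicase cofactor gene, did not overlap either (4.80 ± 0.671 CPM in the knockout and 6.42 ± 0.729 CPM in the controls, SD, n = 3 each, edgeR adjusted p = 0.109).

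The other GINS genes overlapped between groups. Gins4, the most abundant per length, averaged 21.6 ± 1.73 CPM in the knockout and 20.2 ± 0.45 CPM in the controls. Gins3 averaged 4.45 ± 0.589 and 4.79 ± 0.891 CPM in the same order (SD, n = 3 each). Gins2 had a log2 fold change of -0.18, and 67.3% of its exonic bases in GENCODE M21 overlap exons of Gse1 on the opposite strand. The sources used here do not state whether reads were counted by strand.

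Polymerase genes held the clearest contrast between members. Pola1, the catalytic subunit of the priming polymerase alpha, had 20.9, 23.4 and 18.2 CPM in the knockout, against 34.2, 35.3 and 32.8 CPM in the controls. The groups stood well apart, and Pola1 fell 1.64-fold (log2 fold change -0.71, SE 0.10, edgeR adjusted p = 3.20e-07). Its partner Pola2 overlapped between groups (16.9 ± 1.58 CPM in the knockout and 17 ± 1.47 CPM in the controls, SD, n = 3 each, log2 fold change -0.02, 95% interval -0.27 to 0.23). Prim1, the catalytic primase subunit, had 3.48, 2.26 and 2.80 CPM in the knockout, against 4.90, 4.76 and 4.31 CPM in the controls. All knockout values were below all control values, and Prim1 fell 1.65-fold (log2 fold change -0.72, SE 0.25, edgeR adjusted p = 0.0223). Leaving out knockout replicate 2 or 3 or control replicate 1 or 2 ended that call, with edgeR adjusted p-values of 0.123, 0.0523, 0.074 and 0.0624. DESeq2 did not call it (adjusted p = 0.0628).

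Pole encodes the catalytic subunit of polymerase epsilon, which extends the leading strand. Its values were 22.4, 28.8 and 24.2 CPM in knockout libraries and 18.4, 15.7 and 19.3 CPM in controls. Each knockout library lay above each control, and Pole rose 1.42-fold (log2 fold change 0.50, SE 0.12, edgeR adjusted p = 0.000538). Pole2, its accessory subunit, was among the least abundant members at 2.84 ± 0.304 CPM in the knockout and 3.89 ± 0.308 CPM in the controls (SD, n = 3 each) and did not pass (edgeR adjusted p = 0.185).

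Both polymerase delta subunit genes among the members fell, while the other subunit genes, Pold3 and Pold4, did not pass (log2 fold changes -0.10 and 0.28). Pold2, the accessory subunit, had 8.42, 8.09 and 8.98 CPM in the knockout, against 13.6, 12 and 15.6 CPM in the controls. There was no overlap, and Pold2 fell 1.61-fold (log2 fold change -0.69, SE 0.15, edgeR adjusted p = 0.000286). The deposited TPM of Pold2 told less: 18.6, 9.80 and 31.4 TPM in the knockout and 16.3, 39.6 and 27.6 TPM in the controls, which overlap, with limma adjusted p = 0.452 on log2(TPM + 1). Pold1, the catalytic subunit, had 18.4, 15.1 and 17 CPM in the knockout and 20, 21.3 and 21.8 CPM in the controls. The groups were separate by a small gap, with a log2 fold change of -0.32 (SE 0.12, edgeR adjusted p = 0.0267). Its call was lost with DESeq2 (adjusted p = 0.0727) and without knockout replicate 2 (edgeR adjusted p = 0.162), knockout replicate 3 (0.0555), control replicate 2 (0.0787) or control replicate 3 (0.0789).

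The sliding clamp and its loader showed 0 of 6 genes called by edgeR, and 1 of them, Rfc1, had an unadjusted p under 0.05. Such a p was found for at least 37.0% of all tested genes, the share that passed after adjustment. DESeq2 and limma-voom called none of them. Pcna, the clamp that tethers polymerases to DNA, had 68.3, 74.0 and 70.7 CPM in the knockout, against 75.2, 74.9 and 71.3 CPM in the controls. These ranges overlapped, and the 95% interval of the log2 fold change was -0.19 to 0.08. Rfc4, the least abundant loader subunit, averaged 6.78 ± 0.138 CPM in the knockout and 7.06 ± 0.412 CPM in the controls (SD, n = 3 each). The other loader genes had log2 fold changes between -0.16 for Rfc1 and -0.01 for Rfc3. Rfc5 had 28.9 CPM in knockout replicate 1 and 20.2 and 18.6 CPM in the other knockout libraries, against 25, 25.2 and 23.6 CPM in the controls. Without knockout replicate 1 it was called lower (log2 fold change -0.33, edgeR adjusted p = 0.0201).

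Of the genes for RPA, the trimer that coats single-stranded DNA, the smallest subunit changed. Rpa3 had 13.7, 11 and 9.66 CPM in knockout libraries and 17.9, 18.9 and 13.3 CPM in controls. Knockout replicate 1 lay above control replicate 3, so the groups overlapped, and Rpa3 fell 1.47-fold (log2 fold change -0.56, SE 0.15, edgeR adjusted p = 0.00219). Rpa1, the large DNA-binding subunit, had 56.1, 52.5 and 52.9 CPM in the knockout and 61.3, 61.5 and 58.6 CPM in the controls. Each knockout library was below each control, without passing (log2 fold change -0.17, edgeR adjusted p = 0.055), and without knockout replicate 1 it passed (0.0365). Rpa2 overlapped, with 12.6 ± 0.5 CPM in the knockout and 12.2 ± 0.439 CPM in the controls (SD, n = 3 each).

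On the lagging strand, FEN1 trims the displaced flaps of Okazaki fragments and DNA ligase 1 seals them. Lig1 had 20.9, 21.7 and 18.3 CPM in the knockout, against 27.9, 25.1 and 25.2 CPM in the controls. No values overlapped, and Lig1 fell 1.28-fold (log2 fold change -0.36, SE 0.11, edgeR adjusted p = 0.00661). The call was lost without knockout replicate 3 (edgeR adjusted p = 0.0592) or control replicate 1 (0.0537) and on log2(TPM + 1) (limma adjusted p = 0.499). Fen1 was higher in each knockout library, at 36.4 ± 2.40 CPM against 31.7 ± 2.49 CPM in the controls (SD, n = 3 each), and did not pass (edgeR adjusted p = 0.0779). It passed without control replicate 3 (edgeR adjusted p = 0.0413). Of its exonic bases, 78.8% overlap exons of Gm10143 on the opposite strand, which was called higher (log2 fold change 0.43, edgeR adjusted p = 0.00117), so its own reads cannot be told apart from those of Gm10143 if counting ignored strand.

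Enzymes of thymidine supply moved apart. Tyms, thymidylate synthase, makes thymidylate from deoxyuridylate, and had 24.6, 23.7 and 25.2 CPM in the knockout, against 18.4, 19.2 and 17.1 CPM in the controls. The knockout values all exceeded the control values, and Tyms rose 1.34-fold (log2 fold change 0.42, SE 0.11, edgeR adjusted p = 0.00184). On log2(TPM + 1) the size was alike at 0.41 without a call (limma adjusted p = 0.149). Tk1, the thymidine kinase of the salvage route, had 10.1, 10.6 and 8.69 CPM in the knockout and 13.2, 13.2 and 12.9 CPM in the controls. Its groups did not overlap, and Tk1 fell 1.34-fold (log2 fold change -0.42, SE 0.14, edgeR adjusted p = 0.0191). That call did not hold without knockout replicate 3 (edgeR adjusted p = 0.107), control replicate 1 (0.0501) or control replicate 2 (0.0564), nor with DESeq2 (adjusted p = 0.0579).

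Ribonucleotide reductase, which makes deoxyribonucleotides, is built from Rrm1 and Rrm2. Rrm1 had 61.7, 59.0 and 59.7 CPM in the knockout, against 64.7, 75.8 and 63.0 CPM in the controls. It was the uncalled member nearest to the threshold (log2 fold change -0.18, 95% interval -0.32 to -0.03, edgeR adjusted p = 0.0528), and it passed without knockout replicate 1 (0.0458) or control replicate 3 (0.03). Rrm2, the small subunit, averaged 46.3 ± 1.06 CPM in the knockout and 50.1 ± 1.67 CPM in the controls (SD, n = 3 each), without overlap or a call (edgeR adjusted p = 0.251). Dut, the enzyme that keeps uracil out of DNA, averaged 18.9 ± 2.89 CPM in the knockout and 19.8 ± 1.17 CPM in the controls, with overlapping groups.

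Uhrf1, which binds hemimethylated DNA behind the fork and recruits the maintenance methyltransferase, was among the firmest calls. It had 25.8, 25.6 and 29.1 CPM in the knockout, against 34.8, 41.2 and 42.9 CPM in the controls. The groups were separate, and Uhrf1 fell 1.47-fold (log2 fold change -0.56, SE 0.10, edgeR adjusted p = 8.00e-06).

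Levels per transcript length, as TPM deposited by the authors, spread widely within complexes. In the controls they ran from 2.40 ± 0.389 TPM for Cdc6 to 118 ± 17 TPM for Mcm7 (SD, n = 3). Mcm7 and Pcna came first in the controls, at 118 ± 17 and 99.0 ± 3.24 TPM, and their order is not firm at that spread. Mcm7 stood at 122 ± 7.26 TPM in the knockout, while the other genes of the MCM2-7 ring lay between 17.65 TPM (Mcm5) and 34.1 TPM (Mcm6) there and between 18.7 TPM (Mcm5) and 49.0 TPM (Mcm6) in the controls. Within RPA, Rpa2 lay far below its partners: 14.0 ± 0.489 TPM in the knockout and 13.2 ± 0.53 TPM in the controls for Rpa2, and 47.9 ± 7.34 and 70.7 ± 13.1 TPM for Rpa3. Rpa3 and Rpa1 did not differ beyond their spread in either group. Protein was not measured.

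**Figure D3:**
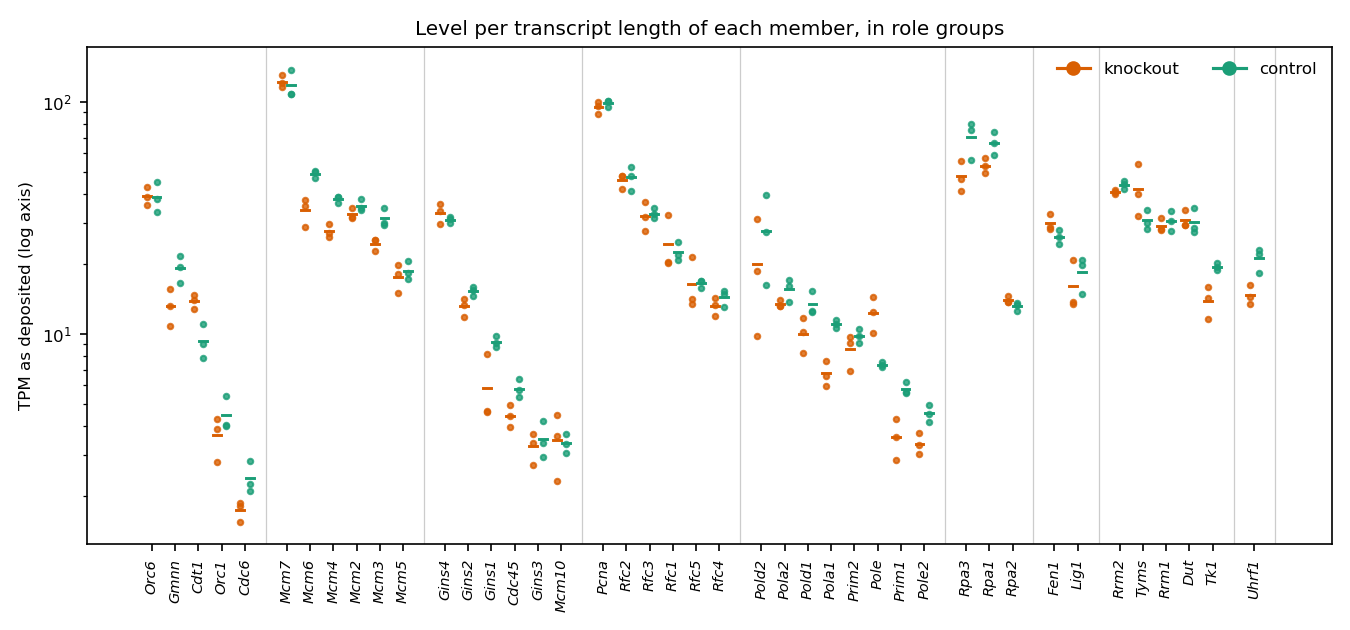
Deposited TPM of each member on a log axis, knockout (orange) left of control (green), with points for the 3 libraries of each group, a line at the mean and genes ordered within role by control level. Mcm7 and Pcna are highest, at 118 and 99.0 TPM in the controls, and Cdc6 is lowest at 2.40 TPM. Pold2 shows the widest scatter within groups.

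The members lie on 15 chromosomes, and several start head to head with another gene. In GENCODE M21, 9 members have a tested gene on the opposite strand whose start lies within 1000 bases upstream of theirs, or overlaps theirs by up to 200. Of the called members 4 are among them, Mcm4, Pole, Rpa3 and Tk1, and for 3 of these the neighbour was called in the same direction. Among the 5 uncalled members with such a neighbour, 1 neighbour was called, Abhd12 beside Gins1, which was higher (log2 fold change 0.21, edgeR adjusted p = 0.0233) while Gins1 itself had a value of -0.65. Of all tested genes 37.0% were called, 18.5% in each direction, and the pairs are described without a test.

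Mcm4 (mm10 chromosome 16, 15623897 to 15637400, minus strand) starts 466 bases from Prkdc, the catalytic subunit of DNA-dependent protein kinase. Prkdc had 16.5, 16.4 and 16.4 CPM in the knockout, against 24.7, 22.7 and 26.0 CPM in the controls. Both genes of the pair were thus lower in each knockout library, Prkdc with a log2 fold change of -0.57 (edgeR adjusted p = 5.97e-05). Pole (chromosome 5, 110286306 to 110337474, plus strand) starts 120 bases from Pxmp2, which encodes a peroxisomal membrane protein. Pxmp2 had 15.7, 14.1 and 16.1 CPM in the knockout, against 6.31, 5.15 and 7.40 CPM in the controls. Its rise (log2 fold change 1.29, edgeR adjusted p = 1.07e-08) was larger than that of Pole, 0.50. Rpa3 (chromosome 6, 8255936 to 8259173, minus strand) starts 115 bases from Umad1, at 8.08, 9.31 and 8.69 CPM in the knockout and 11.3, 12 and 11.9 CPM in the controls. The Umad1 groups did not overlap (log2 fold change -0.43, edgeR adjusted p = 0.0215). Another gene head to head with Rpa3, Gm45062, starts 277 bases away and was also lower (edgeR adjusted p = 0.0072). Gm45062 (8259450 to 8597480) starts inside Umad1 (8259288 to 8459470) on the same strand, and shared reads were not tested for. Its level was low, at 1.97 ± 1.34 CPM in the knockout and 6.55 ± 2.72 CPM in the controls (SD, n = 3 each). By contrast Afmid, head to head with Tk1, had overlapping groups (7.34 ± 3.02 CPM in the knockout and 7.37 ± 0.653 CPM in the controls, SD, n = 3 each).

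**Figure D4:**
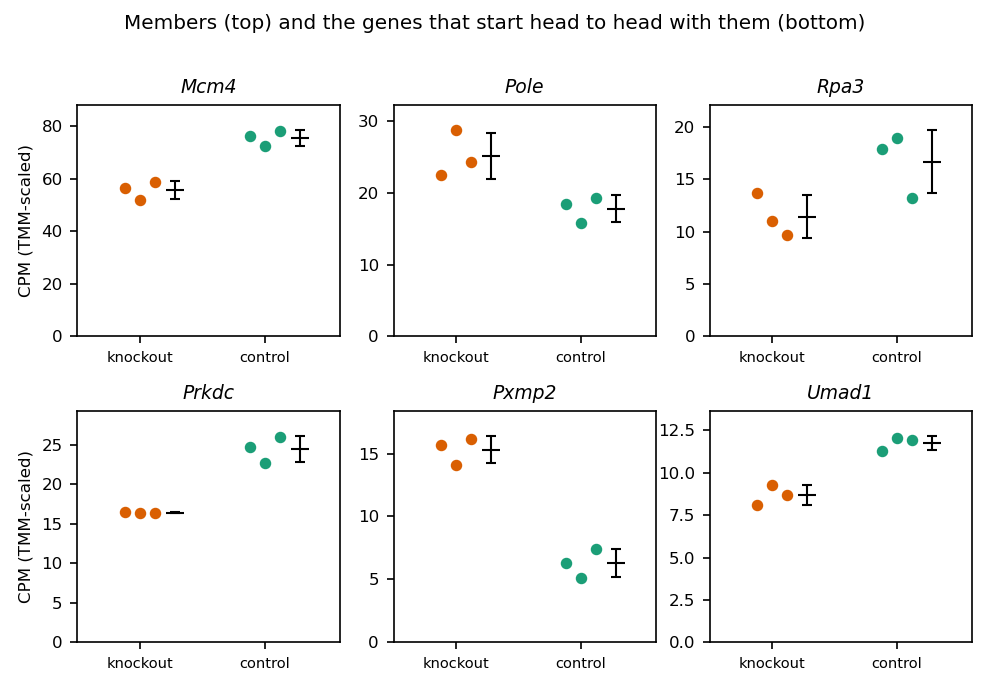
CPM by library of 3 called members (top) and of a gene that starts head to head with each (bottom), knockout (orange) left of control (green), with mean and SD in black and axes from 0. Only pairs called in the same direction are drawn, without Gm45062 beside Rpa3 and without Tk1 and Afmid. Prkdc is lower with Mcm4, Pxmp2 higher with Pole and Umad1 lower with Rpa3. Pxmp2 averages 15.3 CPM in the knockout and 6.29 CPM in the controls.

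Other genes of the pathway, listed with earlier results of these data known, are given beside the 37.0% of all tested genes that were called, 18.5% in each direction. Of 13 other licensing and firing factors, 3 fell, 2 rose and 8 did not pass (median log2 fold change -0.10), and the 38.5% called lies near that background. Ticrr, which loads CDC45 onto licensed origins, fell 2.17-fold (2.06 ± 0.342 CPM in the knockout and 4.49 ± 0.541 CPM in the controls, edgeR adjusted p = 0.00113). Dbf4 and Cdc7, the subunits of the kinase that fires origins, fell 1.28-fold and 1.6-fold (edgeR adjusted p = 0.00198 and 0.00558). Against them, the origin recognition genes Orc2 and Orc4 rose 1.52-fold and 1.18-fold (edgeR adjusted p = 8.59e-09 and 0.00361).

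Of 17 other fork factors tested, 4 fell, 1 rose and 12 did not pass (29.4% called, below the background, median -0.16), and Dscc1 was not tested for low counts. Pclaf, a PCNA-binding protein, fell 2.01-fold to 12.8 ± 0.859 CPM in the knockout, against 25.7 ± 2.14 CPM in the controls (edgeR adjusted p = 3.78e-09). Clspn, the claspin gene of fork signalling, and Wdhd1, which links polymerase alpha to the helicase, fell 2.06-fold and 1.37-fold (edgeR adjusted p = 0.000537 and 0.0095). The gene that rose was Chtf8, part of an alternative clamp loader, by 1.09-fold (edgeR adjusted p = 0.0442), a call that was lost with DESeq2, with library totals and without a count filter. Of 10 chromatin factors that act behind the fork, 4 fell, 0 rose and 6 did not pass (40% called, near the background, median -0.20). They included the histone chaperone genes Nasp (1.31-fold, edgeR adjusted p = 5.16e-06) and Chaf1a (1.47-fold, 3.65e-05), and Dnmt1, the methyltransferase that Uhrf1 protein recruits (1.21-fold, 0.00267).

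For the other nucleotide synthesis genes, 7 of 29 fell, 3 rose and 19 did not pass (34.5% called, near the background, median -0.07). The 3 with the smallest p among those that fell encode purine synthesis enzymes, and Impdh2 of the same route also fell (log2 fold change -0.20, edgeR adjusted p = 0.0116). Gart, Atic, Gmps, Adsl and Pfas of that route did not pass (log2 fold changes between -0.07 for Pfas and 0.08 for Gart). Paics fell to 121 ± 4.37 CPM in the knockout, against 192 ± 9.28 CPM in the controls (edgeR adjusted p = 3.00e-13), and Ppat and Adss fell 1.66-fold and 1.23-fold (edgeR adjusted p = 1.65e-11 and 9.92e-06). Cad, which starts pyrimidine synthesis, rose to 134 ± 9.49 CPM in the knockout, against 96.9 ± 3.48 CPM in the controls (edgeR adjusted p = 2.82e-08). Samhd1, which breaks down deoxynucleotides, and Shmt2, a mitochondrial one-carbon enzyme, rose 1.35-fold and 1.3-fold (edgeR adjusted p = 4.83e-06 and 2.59e-05).

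E2F and RB family genes split evenly, with 3 of 13 lower, 3 higher and 7 not passing (46.2% called, median 0.07). E2f1, an activator of replication genes, fell 1.55-fold (7.65 ± 1.54 CPM in the knockout and 11.8 ± 1.15 CPM in the controls, edgeR adjusted p = 0.00201). E2f8, an atypical repressor, rose 2.07-fold (33.2 ± 0.659 CPM in the knockout and 16 ± 0.648 CPM in the controls, edgeR adjusted p = 4.63e-11). Rbl1, the pocket protein p107 gene, fell 1.74-fold and Tfdp2, an E2F partner, 1.23-fold (edgeR adjusted p = 4.68e-08 and 0.00369), while E2f6 and E2f2 rose 1.28-fold and 1.85-fold (edgeR adjusted p = 0.000958 and 0.0362). The level of E2f2 was low and its groups overlapped, at 3.81, 2.63 and 3.67 CPM in the knockout and 0.754, 2.72 and 1.99 CPM in the controls.

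Mitosis genes, which act later in the cycle, were given as the set most like the members. Of 20, 17 fell, 1 rose and 2 did not pass (90% called), with a median of -0.72, against the median of -0.16 for the members. Anln, Top2a and Cenpf fell 2.24-fold, 1.74-fold and 2.90-fold (edgeR adjusted p = 5.25e-14, 1.18e-11 and 5.72e-11), and Kif23 rose 1.71-fold (edgeR adjusted p = 6.15e-12). The difference between the sets was not tested, and both were chosen with earlier results known. Their promoters differ in letters too. A cell cycle homology region (CHR; TTTGAA or TTCGAA, both strands), an element of genes expressed in G2 and mitosis, was found for 13 of 17 mitosis genes with an entry (76.5%) and 7 of 34 members (20.6%), against 16.3% of tested genes with an entry. For the E2F motif the counts were 1 of 17 mitosis genes and 14 of 34 members. The CCAAT motif did not set the members apart from the mitosis genes. It was found for 22 of 34 members (64.7%) and 14 of 17 mitosis genes (82.4%), against 43.0% of tested genes.

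**Figure D5:**
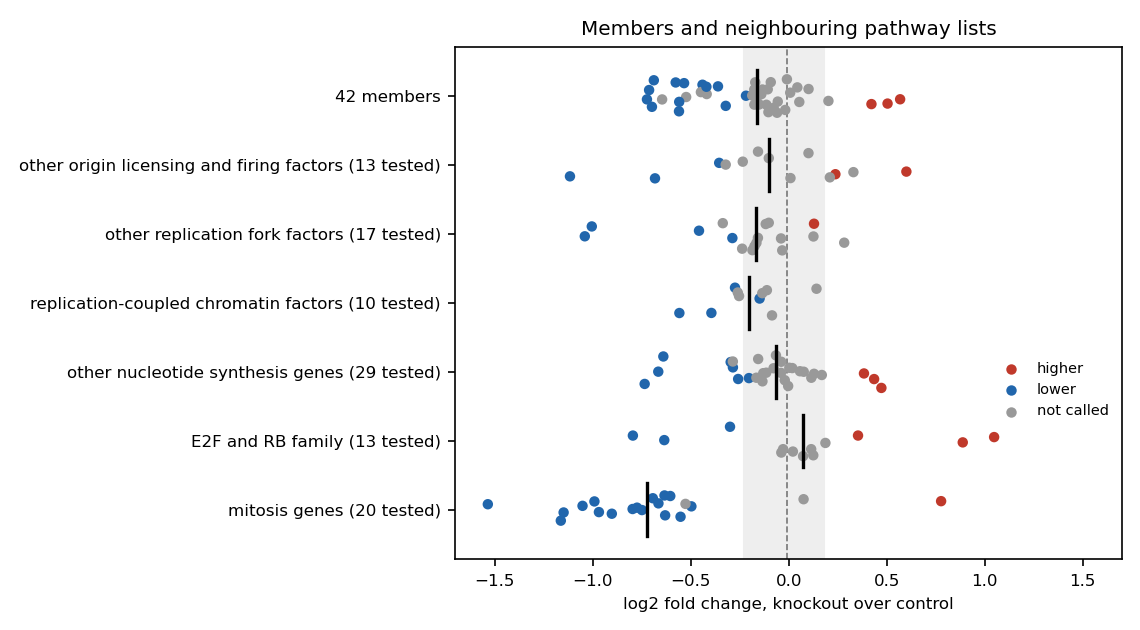
Log2 fold change, knockout over control, of the 42 members and of the tested genes in 6 related lists, 1 point a gene, in red where higher, blue where lower and grey where not called (vertical scatter is for display). Black bars are list medians, and the grey band and dashed line are the middle 50% and the median of all tested genes. The member median is -0.16, and the mitosis median is -0.72.

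Markers of cell types were read once for the cultures as a whole. Tubular epithelial markers were abundant, led by Krt8 and Krt18 (2908 ± 68.5 and 1849 ± 53.9 CPM in the knockout and 2123 ± 73.5 and 1128 ± 17.9 CPM in the controls), although Aqp2 and Slc22a6 had 0 counts in each library. Of 12 tubular markers, 5 rose, 2 fell and 2 were not tested. Their summed level, mostly Krt8 and Krt18, was 5994 to 6120.3 CPM in the knockout, against 4428 to 4603 CPM in the controls. Those that fell were Pax8 (85.3 ± 3.62 and 117 ± 3.50 CPM, edgeR adjusted p = 6.28e-08) and Cdh16 (144 ± 1.22 and 177 ± 7.09 CPM, 1.90e-05). Lrp2, Cubn and Umod did not pass, at 13.0, 7.57 and 1.61 CPM in the knockout and 15.1, 8.05 and 2.79 CPM in the controls. The 10 leukocyte markers summed to 50.5 to 54.3 CPM in the knockout and 71.5 to 79.0 CPM in the controls, with Csf1r (19.5 ± 1.75 and 23.4 ± 2.41 CPM) and Cd14 (7.47 ± 0.365 and 25.2 ± 1.52 CPM) leading and Cd3e at 0. Cd14 was the 1 leukocyte marker that fell (edgeR adjusted p = 1.74e-14). The 6 endothelial markers summed to 49.1 to 58.8 CPM in the knockout and 42.4 to 45.5 CPM in the controls, mostly Flt1 and Kdr, with Pecam1, Cdh5, Tek and Emcn too low to test, and 1 rose. The 8 fibroblast and pericyte markers summed to 310.2 to 322 CPM in the knockout and 243 to 276 CPM in the controls, mostly Acta2 and Col1a1, with 3 that rose and Lum at 0. The 6 podocyte markers summed to 283 to 322 CPM in the knockout and 159 to 163 CPM in the controls, mostly Podxl and Synpo, which both rose. These sums moved with the groups, and their part in the member results was not tested.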

How the data were processed

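The 6 libraries were made from enriched mRNA, per the labels' protocols. Estimated counts per gene were deposited by the authors without scaling, and TPM, scaled for transcript length, were deposited by the authors in a second table, normalised to the same sum in each library. Salmon, featureCounts and mm10 appear in the submitters' processing notes, with no strand setting or annotation release stated. Of nonzero estimated counts, 93.3% were whole within 1e-06, and among members Rrm2 and Pole2 had a fractional value in 1 library each.

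Counts were rounded, filtered with filterByExpr, scaled with TMM and tested with the robust quasi-likelihood test of edgeR 4.0.16 (R 4.3.3), with Benjamini-Hochberg adjustment over 13755 genes and a threshold of 0.05. The biological coefficient of variation was 5.35%. Replicates differed by more than sampling noise (chi-square over its degrees of freedom 2.03 to 3.67). SEs follow from the F statistic. Intervals and count limits cover counting or replicate error only. The fits were first tested on simulated counts. Groups came from the sample titles. Alternatives used DESeq2 1.42.0, limma 3.58.1 with voom or on log2(TPM + pseudocount), which understates changes of low genes, other scalings, filters and thresholds, a replicate block, and leaving out each library. Positions are from GENCODE M21 on mm10, and promoters from RefSeq.

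Members and lists were chosen with earlier results of these data known. Named genes were all members, with library values for called ones, the most and least abundant uncalled member per role, up to 3 called genes per direction in each related list, and the 2 most abundant markers per list.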

Additional observations from a re-analysis of the deposited data

How the results depend on the processing

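Of the 16 called members, 5 (Mcm6, Mcm4, Pola1, Pole and Uhrf1) kept their call under each of the 18 alternatives, and 11 lost it under at least 1. Of the 26 others, 6 were called under at least 1. The count of members lower in the knockout, 13 with edgeR, was 8 with DESeq2 and 7 at an adjusted p under 0.01 (13.1% of tested genes), which is a stricter threshold by construction. On TPM it was 8 with log2(TPM + 1) and 7 with log2(TPM + 0.1) at a mean TPM of at least 0.5 (8.53%), and 4 with log2(TPM + 1) and no filter (4.42%). Without that filter 1 member was called higher, against 3, and 29 genes of the related lists were called, against 48. All genes called were 2728, 2745 and 2159 in these 3 TPM settings, against 5087. Cdt1 and Rpa3 lost their call in no other setting than the unfiltered TPM (limma adjusted p = 0.0587 and 0.0898). The cause was not tested. With library totals 17 members were called lower, with limma-voom 14, and without robust dispersions, an alternative chosen after seeing the data, 13. All genes called in either direction were 5116, 5062 and 5028 in the same order, against 5087 in the main test.

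Leaving out a library gave 9 to 16 members lower and 3 to 4 higher, with 4339 to 5152 genes called in all. The 16 came without knockout replicate 1, which also gave the 5152. Mcm10, Gins1, Rfc5, Rpa1 and Rrm1 were then called, and Gmnn and Mcm3 were not. Elf3 kept its call in each alternative, and without single libraries its log2 fold change was -3.11 to -2.60.

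Some members that were not called changed sign. The log2 value was -0.017 for Mcm7 with library totals. On log2(TPM + 1), with or without a filter, it was 0.0025 for Mcm10, against -0.52 on counts, 0.078 for Rfc1 and 0.034 for Dut, and on log2(TPM + 0.1) it was 0.080 for Rfc1 and 0.035 for Dut. Without single libraries the range was -0.27 to 0.061 for Orc1, -0.052 to 0.17 for Orc6, -0.040 to 0.088 for Mcm7, -0.22 to 0.056 for Gins3, -0.038 to 0.039 for Rfc3, -0.085 to 0.059 for Pola2 and -0.19 to 0.011 for Dut.

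For samples with the same replicate number, deviations from group means correlated at -0.01, 0.04 and 0.03 across genes. Those with unlike numbers correlated between -0.097 and 0.067. Deviations within a group of 3 sum to 0, so these values cannot settle whether replicates were paired. With the replicate block, 15 members were lower and 3 higher, and 5195 genes were called in all, with Gins1 and Rrm1 added (edgeR adjusted p = 0.0473 and 0.0486). The mean of at least 5 CPM left 38 members, with no value for the other 4. Members of a few CPM, such as Cdc6, Prim1, Gins1 and Gins3, rest on few counts.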

Other observations

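The deposited counts and TPM of a gene differ in a library by a factor that follows the transcript length used there, so their ratio, scaled to the median ratio of the library, gives an implied length. For the median member the highest library exceeded the lowest by 1.14-fold, against 1.10-fold over 13709 tested genes, and 6 members (14.3%) exceeded 1.5-fold, against 13.5% of tested genes. The ratio varied most for Pold2, 2.85-fold, with values of 0.81, 1.53 and 0.54 of its mean in knockout libraries and 1.52, 0.57 and 1.04 in controls. Mcm10 came next at 2.77-fold, with 0.45 in knockout replicate 3. The others over 1.5-fold were Lig1, Orc1, Tyms and Cdc6. Of these 6 genes, the 4 that were called on counts (Pold2, Lig1, Tyms and Cdc6) all lost the call on log2(TPM + 1), as did Gmnn and Pold1, which were below 1.5-fold. These genes were singled out after their values were seen.

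Further members have exons that overlap another tested gene in GENCODE M21, 11 in all. Besides Gins2 and Fen1, described above, the overlap covered at most 15.1% of exonic bases (Rfc2 with Lat2). Some neighbours on the opposite strand were far more abundant than the member. Rfc4 overlaps Eif4a2 (12.7%; 380 CPM in the knockout and 342 CPM in the controls, called higher). Rfc5 overlaps Wsb2 (10.7%, 107 and 134 CPM, called lower), and Orc6 overlaps Vps35 (6.93%, 317 and 325 CPM, not called). What these add to the member counts if counting ignored strand was not tested.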
